A study of Mus musculus with 15 samples.

Results

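The p53 pathway genes described here are 10 genes taken by their symbols, namely Trp53, Mdm2, Cdkn1a, Ccng1, Gdf15, Bax, Bbc3, Eda2r, Phlda3 and Trp53inp1. A gene was read from a row of the GeneChip Mouse Gene 1.0 ST array (a transcript cluster, which sums up the probes along a gene in 1 value) that the annotation assigns to that symbol alone. By this rule 6 of the 10 were measured, Mdm2, Ccng1, Phlda3, Eda2r, Bbc3 and Trp53inp1, among 19938 genes in all. Each of the 6 had 1 such cluster. Cdkn1a, the cyclin-dependent kinase inhibitor p21, is named only on a cluster that also names 4930567H12Rik, so no value was read for it. Trp53, Gdf15 and Bax were not analysed here.

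The arrays held total RNA of frozen liver from male C57BL/6J mice. From an age of 8 weeks the mice were fed a basal diet, the atherogenic and high-fat diet (Ath+HF group, a diet model of nonalcoholic steatohepatitis), or the Ath+HF diet with 3% branched-chain amino acids (Ath+HF+BCAA group), and the labels name no transgene or deletion in any group. There were 5 groups of 3 arrays, which were basal diet at 38w (age 38 weeks, 30 weeks on the diet), Ath+HF at 38w, Ath+HF+BCAA at 38w, Ath+HF at 68w (age 68 weeks, 60 weeks on the diet) and Ath+HF+BCAA at 68w. Nothing in the labels or the methods states that each array is a separate mouse, so p-values reflect only how far these arrays spread, part of which may be technical, nor is it stated whether a 68w sample held tumor tissue. Values are log2 signals normalized by RMA, and since the brightness of a probe also depends on the probe, levels are not compared between genes. Groups were compared with limma in 1 fit of all 15 arrays, and a gene is called higher or lower at an adjusted p under 0.05 (Benjamini-Hochberg over all 19938 genes).

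The transcription factor p53 is kept low in unstressed cells by Mdm2, a ubiquitin ligase that marks p53 for degradation and is itself a p53 target, so that the pair forms a negative feedback loop. On DNA damage or other stress, kinases such as Atm, Atr and Chek2 weaken this hold, and p53 then raises genes of cell cycle arrest, DNA repair and cell death. In the liver, p53 is known as a tumor suppressor and as a regulator of hepatocyte death, regeneration and metabolism in chronic injury. An RNA level of a target gene does not measure the p53 protein.

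The array medians over all transcript clusters lay between 6.91 and 7.16, and no pair of arrays held identical values. Over the genes alone the array medians lay between 7.28 and 7.50. Where array medians were set equal, these medians over genes were used. They lay between 7.35 and 7.36 for the label Ath+HF 68w and at 7.50 for the label Ath+HF+BCAA 68w. Hepatocyte markers were bright on every array, and the mean of 8 of them lay between 13.23 and 13.51. The mean of 8 macrophage markers lay between 8.85 and 8.89 in the basal diet arrays, between 10.01 and 10.21 in Ath+HF at 38w, and between 9.70 and 10.30 in Ath+HF+BCAA at 38w. It lay between 8.00 and 8.16 for the label Ath+HF 68w, below every basal diet array, and for the label Ath+HF+BCAA 68w between 10.39 and 10.87, above every other array. The 68w groups therefore stand apart from each other in their cell markers, and each direction given for 68w rests on the labels of those 6 arrays. Whether these labels are right was not tested and remains to be checked with the submitters. If they were exchanged, every sign of the difference between the 68w groups would turn. The results against the basal diet group would then swap between the 68w groups, and all others that use 68w arrays would change too. In RNA of whole liver, fewer cells of a type and less RNA per cell cannot be told apart. No basal diet array is from 68w, and so in a comparison of 68w with 38w the age, the weeks on the diet and a batch of processing cannot be told apart. Each comparison of a 68w group with the basal diet group uses the basal diet arrays of 38w. There the kind of diet cannot be told apart from these either.

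The 250 bases before the start of transcription of Mdm2, Ccng1, Phlda3 and Eda2r are shown because these 4 genes were called in the same direction where Ath+HF at 68w was compared with another diet group. They are from RefSeq (GRCm38.p6), 5′ to 3′ on the strand of the gene, and capitals mark matches to the p53 half-site consensus, the element that p53 binds in pairs. Mdm2 (gene at chr10:117688875-117710758) has its window at chr10:117710759-117711008 on the minus strand. Ccng1 (chr11:40748552-40755309) has its window at chr11:40755287-40755536 on the minus strand. Phlda3 (chr1:135766085-135769134) has its window at chr1:135765835-135766084 on the plus strand, and Eda2r (chrX:97333837-97377234) at chrX:97377210-97377459 on the minus strand. The last bases of the Ccng1 and Eda2r windows lie inside the widest annotated span of the gene.
Mdm2: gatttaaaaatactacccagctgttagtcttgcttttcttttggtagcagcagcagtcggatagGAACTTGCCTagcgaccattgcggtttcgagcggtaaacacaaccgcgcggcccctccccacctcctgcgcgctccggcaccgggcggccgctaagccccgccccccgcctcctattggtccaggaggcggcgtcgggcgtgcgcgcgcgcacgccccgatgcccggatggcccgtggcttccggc
Ccng1: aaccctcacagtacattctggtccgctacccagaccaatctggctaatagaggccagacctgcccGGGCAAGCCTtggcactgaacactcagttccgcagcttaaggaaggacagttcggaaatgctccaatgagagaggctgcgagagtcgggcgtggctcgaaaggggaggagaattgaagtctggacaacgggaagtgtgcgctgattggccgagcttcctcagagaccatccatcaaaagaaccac
Phlda3: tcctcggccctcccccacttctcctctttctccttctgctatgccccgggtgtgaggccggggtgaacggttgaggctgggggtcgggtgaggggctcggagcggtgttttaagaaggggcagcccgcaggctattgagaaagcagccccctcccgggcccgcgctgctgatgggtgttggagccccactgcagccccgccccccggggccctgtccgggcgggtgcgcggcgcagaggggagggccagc
Eda2r: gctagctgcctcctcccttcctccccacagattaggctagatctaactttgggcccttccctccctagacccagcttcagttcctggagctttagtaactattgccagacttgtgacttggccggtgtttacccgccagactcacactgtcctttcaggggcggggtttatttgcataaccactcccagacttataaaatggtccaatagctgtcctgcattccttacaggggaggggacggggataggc

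A p53 half-site consensus stood at -186 in Mdm2 and at -185 in Ccng1, counted from the start, and none stood in the windows of Phlda3 and Eda2r. Bbc3 (chr7:16308398-16318334), which has 3 such windows, had none either, and Trp53inp1 (chr4:11156441-11174379) has no window in the table used. Over all 32851 windows of this length, 7.13% hold a match, and the consensus reads the same on both strands. The letters CCAAT, on either strand, occurred in the windows of Mdm2 (1 match), Ccng1 (3 matches) and Eda2r (1 match) and in 1 window of Bbc3, and not in that of Phlda3, against 33.8% of all windows. TATAAA, on either strand, occurred in that of Eda2r and in 12.4% of all windows. In the windows of Mdm2 and Ccng1 the CCAAT and half-site matches did not overlap. These are matches of letters and not measured binding, and sequence inside the genes was not searched.

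Mdm2, the inhibitor of p53, was lowest in Ath+HF at 68w, and its arrays overlapped among the other 3 diet groups. Its log2 signals were 8.96, 8.71 and 9.11 with the basal diet, 9.35, 9.08 and 9.23 in Ath+HF at 38w, and 9.31, 9.12 and 9.10 in Ath+HF+BCAA at 38w. They were 8.69, 8.57 and 8.66 in Ath+HF at 68w and 9.23, 9.41 and 9.13 in Ath+HF+BCAA at 68w. All 3 arrays of Ath+HF at 68w lay below every other array, while the other 3 diet groups overlapped each other, and only Ath+HF+BCAA at 68w, at 9.13 and above, cleared the highest basal diet array at 9.11. In the Ath+HF group Mdm2 fell by 0.58 log2 units from 38w to 68w (standard error 0.12, adjusted p = 0.00146). At 68w it was 1.53-fold higher in Ath+HF+BCAA than in Ath+HF, a log2 difference of 0.62 (standard error 0.12, adjusted p = 0.000635). Against the basal diet group, Ath+HF+BCAA at 68w was higher by 0.33 (standard error 0.12, adjusted p = 0.029), and Ath+HF at 68w differed by -0.28 (standard error 0.12, adjusted p = 0.0667), which did not pass. The call of Ath+HF+BCAA at 68w against the basal diet group was lost without basal diet replicate 2 (adjusted p = 0.136). The same held without replicate 1 (0.0581) or 2 (0.134) of Ath+HF+BCAA at 68w. This call was also lost under equal array medians, where the difference was 0.12 (adjusted p = 0.396).

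**Figure D1:**
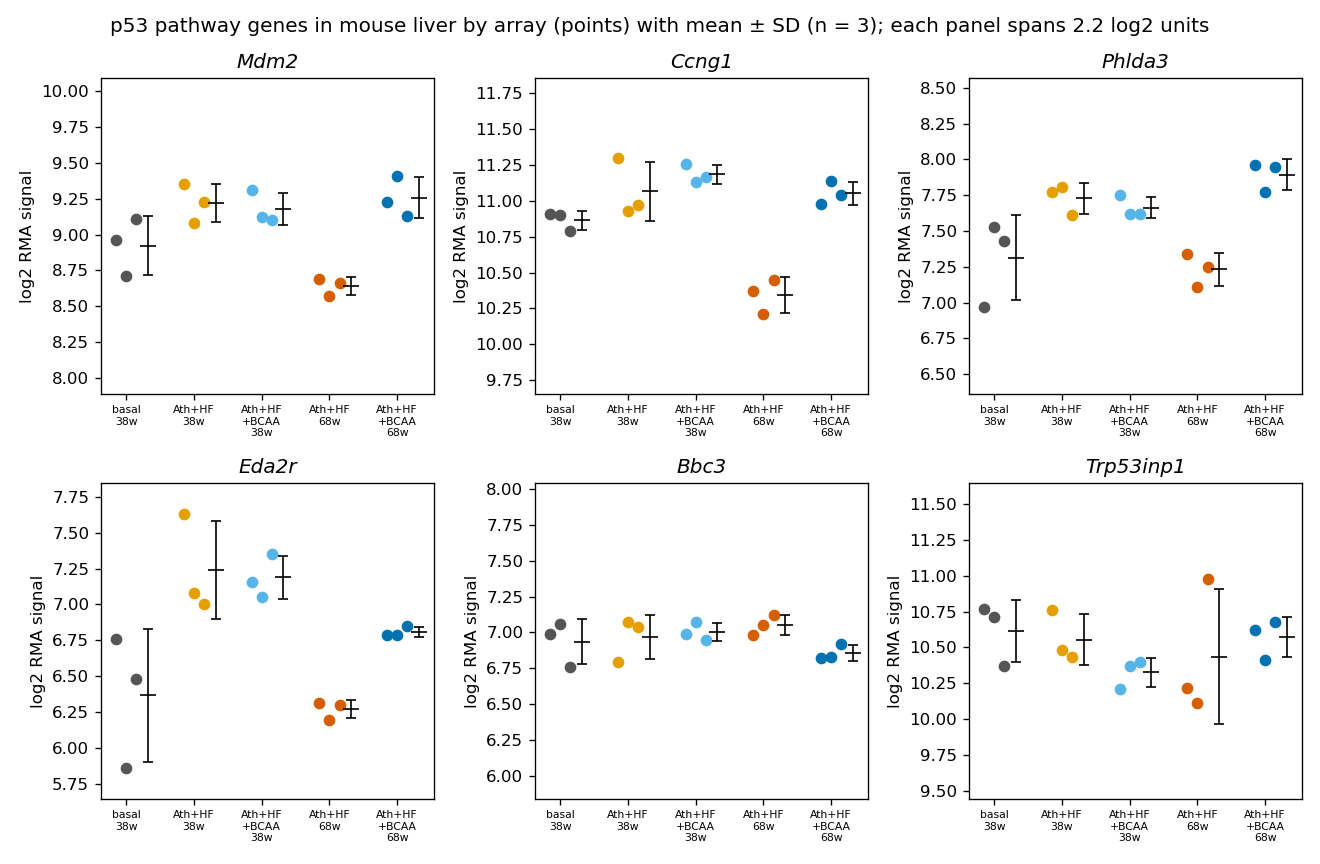
Log2 RMA signal (vertical axis) of the 6 measured p53 pathway genes in the 5 groups (horizontal axis), with 1 point per array (3 per group) and the mean ± SD beside them in black. In the panels of Mdm2, Ccng1, Phlda3 and Eda2r the points of Ath+HF at 68w lie below those of the other diet groups, and the points of Bbc3 span only 6.76 to 7.12.

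Ccng1 encodes cyclin G1, a p53 target that brings a phosphatase to Mdm2 and so feeds back on p53. It had the smallest adjusted p of the 6 genes in each comparison below where 4 were called. With the basal diet its log2 signals were 10.91, 10.90 and 10.79, in Ath+HF at 38w they were 11.30, 10.93 and 10.97, and in Ath+HF+BCAA at 38w they were 11.26, 11.13 and 11.17. In Ath+HF at 68w they were 10.37, 10.21 and 10.45, and in Ath+HF+BCAA at 68w 10.98, 11.14 and 11.04. Every array of Ath+HF at 68w lay below every array of the other groups, and every diet array of the remaining groups lay above the basal diet arrays. From 38w to 68w in the Ath+HF group Ccng1 fell by 0.72 log2 units (standard error 0.11, adjusted p = 0.00015), and it was lower than in the basal diet group by a log2 difference of -0.52 (standard error 0.11, adjusted p = 0.00174). It was the only one of the 6 genes called lower in Ath+HF at 68w than with the basal diet, and under equal array medians Mdm2 was called lower as well. At 68w it was 1.64-fold higher in Ath+HF+BCAA than in Ath+HF (log2 difference 0.71, standard error 0.11, adjusted p = 8.59e-05). The differences of the other diet groups from the basal diet group, 0.20, 0.32 and 0.19, did not pass (adjusted p = 0.356, 0.1 and 0.169).

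Phlda3 encodes a p53-induced protein that competes with Akt for membrane lipids and so holds back Akt signaling. Its log2 signals were 6.97, 7.53 and 7.43 with the basal diet, 7.77, 7.81 and 7.61 in Ath+HF at 38w, and 7.75, 7.62 and 7.62 in Ath+HF+BCAA at 38w. In Ath+HF at 68w they were 7.34, 7.11 and 7.25, and in Ath+HF+BCAA at 68w 7.96, 7.77 and 7.95. The arrays of Ath+HF at 68w lay among those of the basal diet group, and the other 3 diet groups lay above both. Phlda3 fell by 0.50 log2 units (standard error 0.13, adjusted p = 0.00751) from 38w to 68w in the Ath+HF group. It was 1.58-fold higher in Ath+HF+BCAA than in Ath+HF at 68w (log2 difference 0.66, standard error 0.13, adjusted p = 0.000809), and higher than in the basal diet group by 0.58 (standard error 0.13, adjusted p = 0.00176). The last difference was 0.37 under equal array medians (adjusted p = 0.0259) and 0.39 under quantile normalization (adjusted p = 0.0237). At 38w it differed from the basal diet group by 0.41 in Ath+HF (adjusted p = 0.0903) and by 0.35 in Ath+HF+BCAA (adjusted p = 0.14), which did not pass, but the first was called higher with dim genes left out and without basal diet replicate 2.

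Eda2r encodes a receptor of the tumor necrosis factor receptor family that binds the A2 form of ectodysplasin and is a p53 target. It spread most of the 6 genes, with an SD over the 15 arrays above that of 91.2% of all genes, and it was the member called at 38w in the fit of all 15 arrays and all genes. Its log2 signals were 6.76, 5.86 and 6.48 with the basal diet, 7.63, 7.08 and 7.00 in Ath+HF at 38w, and 7.16, 7.05 and 7.35 in Ath+HF+BCAA at 38w. In Ath+HF at 68w they were 6.31, 6.19 and 6.30, and in Ath+HF+BCAA at 68w 6.79, 6.79 and 6.85. Both 38w diet groups lay above every other array, Ath+HF+BCAA at 68w lay between them and the basal diet arrays, and Ath+HF at 68w lay within the range of the basal diet arrays. Eda2r was 1.83-fold higher in Ath+HF at 38w (log2 difference 0.87, standard error 0.19, adjusted p = 0.016) and 1.77-fold higher in Ath+HF+BCAA at 38w (0.82, standard error 0.19, adjusted p = 0.0201) than with the basal diet. These calls were lost without basal diet replicate 2, the lowest array, where the differences were 0.62 (adjusted p = 0.0503) and 0.57 (adjusted p = 0.0651). The first was also lost without replicate 1 of Ath+HF at 38w (0.0749), the second without replicate 1 (0.0556) or 3 (0.0787) of Ath+HF+BCAA at 38w, and both when the 38w arrays were fitted alone (0.0843 and 0.088).

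From 38w to 68w in the Ath+HF group, Eda2r fell by 0.97 log2 units (standard error 0.19, adjusted p = 0.00128). In the Ath+HF+BCAA group the difference over the same ages was -0.38 (standard error 0.19, adjusted p = 0.13), which did not pass. At 68w Eda2r was 1.45-fold higher in Ath+HF+BCAA than in Ath+HF (log2 difference 0.54, standard error 0.19, adjusted p = 0.0387). That call was lost when any 1 of the 6 arrays of 68w was left out (adjusted p between 0.0666 and 0.104), although its arrays did not overlap. It was also lost under equal array medians (0.39, adjusted p = 0.0899), with p-values adjusted over all transcript clusters (0.0713), and by the methods' analysis of variance with Bonferroni's method (0.34, and 0.836 after Benjamini-Hochberg).

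Bbc3, which encodes the pro-apoptotic protein PUMA, and Trp53inp1, which encodes a p53-induced stress protein of autophagy and cell death, were called in none of the 9 comparisons. Bbc3 had log2 signals of 6.99, 7.06 and 6.76 with the basal diet, 6.79, 7.07 and 7.04 in Ath+HF at 38w, 6.99, 7.07 and 6.95 in Ath+HF+BCAA at 38w, 6.98, 7.05 and 7.12 in Ath+HF at 68w, and 6.82, 6.83 and 6.92 in Ath+HF+BCAA at 68w. Groups next to each other in the order of their means overlapped. The arrays of Ath+HF+BCAA at 68w all lay below those of Ath+HF at 68w and those of Ath+HF+BCAA at 38w. Bbc3 was among the genes left out as dim under an alternative setting. Whether a signal so dim could show a change was not tested. Only 2.81% of all genes had a smaller SD over the 15 arrays than Bbc3. At 68w its difference between Ath+HF+BCAA and Ath+HF was -0.20 with a 95% interval of -0.41 to 0.02 (adjusted p = 0.145), opposite in sign to the 4 genes above. Setting the array medians equal gave -0.34 there, which was called lower (adjusted p = 0.0132).

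Trp53inp1 had log2 signals of 10.77, 10.71 and 10.37 with the basal diet, 10.76, 10.48 and 10.43 in Ath+HF at 38w, and 10.21, 10.37 and 10.40 in Ath+HF+BCAA at 38w. In Ath+HF at 68w it had 10.22, 10.11 and 10.98, and in Ath+HF+BCAA at 68w 10.62, 10.41 and 10.68. Groups next to each other in the order of their means overlapped. The arrays of Ath+HF+BCAA at 38w all lay below those of Ath+HF at 38w and those of Ath+HF+BCAA at 68w. Replicate 3 of Ath+HF at 68w was the brightest of the 15 arrays while the other arrays of that group were among the dimmest. The difference of Trp53inp1 between Ath+HF+BCAA and Ath+HF at 68w was 0.14 with a 95% interval of -0.26 to 0.53 (adjusted p = 0.577). That value was -0.01 with the array medians set equal. Without replicate 3 of Ath+HF at 68w the gene was called between the 68w groups, so its result there depends on 1 array.

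Beside the rest of the array, the first comparisons ask what the Ath+HF diet changed at 38w. Against the basal diet group, 1 of 6 genes was called higher (Eda2r) in Ath+HF and 1 (Eda2r) in Ath+HF+BCAA, and none was called lower. With dim genes left out or without basal diet replicate 2, the 1 gene called in Ath+HF was Phlda3. Over all genes, 3.05% were called higher and 1.18% lower in Ath+HF, and 3.67% and 1.82% in Ath+HF+BCAA. Setting the array medians equal gave 445 higher and 559 lower genes in Ath+HF, in place of 608 and 235, and 574 and 663 in Ath+HF+BCAA, in place of 732 and 363. The median log2 difference of the 6 genes was 0.25 in Ath+HF and 0.29 in Ath+HF+BCAA, against 0.00 and -0.01 over all genes. Both comparisons share the 3 basal diet arrays, so their values are not independent of each other. Between Ath+HF+BCAA and Ath+HF at 38w, none of the 6 genes was called, and 0% of all genes were called higher and 0% lower. At an unadjusted p under 0.05 limma also gave 0 of the 6 there, and 1528 of all genes. The 95% intervals of that difference were -0.29 to 0.21 for Mdm2, -0.11 to 0.35 for Ccng1, -0.34 to 0.21 for Phlda3 and -0.46 to 0.36 for Eda2r.

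The change from 38w to 68w was read within each diet. In the Ath+HF group 4 of 6 genes were called lower and none higher, where 20.0% of all genes were called lower and 17.6% higher. The median log2 difference of the 6 genes was -0.54, against 0.05 over all genes. In the Ath+HF+BCAA group none of the 6 was called and 0 had an unadjusted p under 0.05 in limma, where 20.5% of all genes were called higher and 18.3% lower, and the median of the 6 was -0.03, against 0.03 over all genes. With the array medians set equal, Ccng1, Bbc3 and Eda2r were called lower in that comparison, and 2346 of all genes were higher and 5735 lower, in place of 4081 and 3654.

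**Figure D2:**
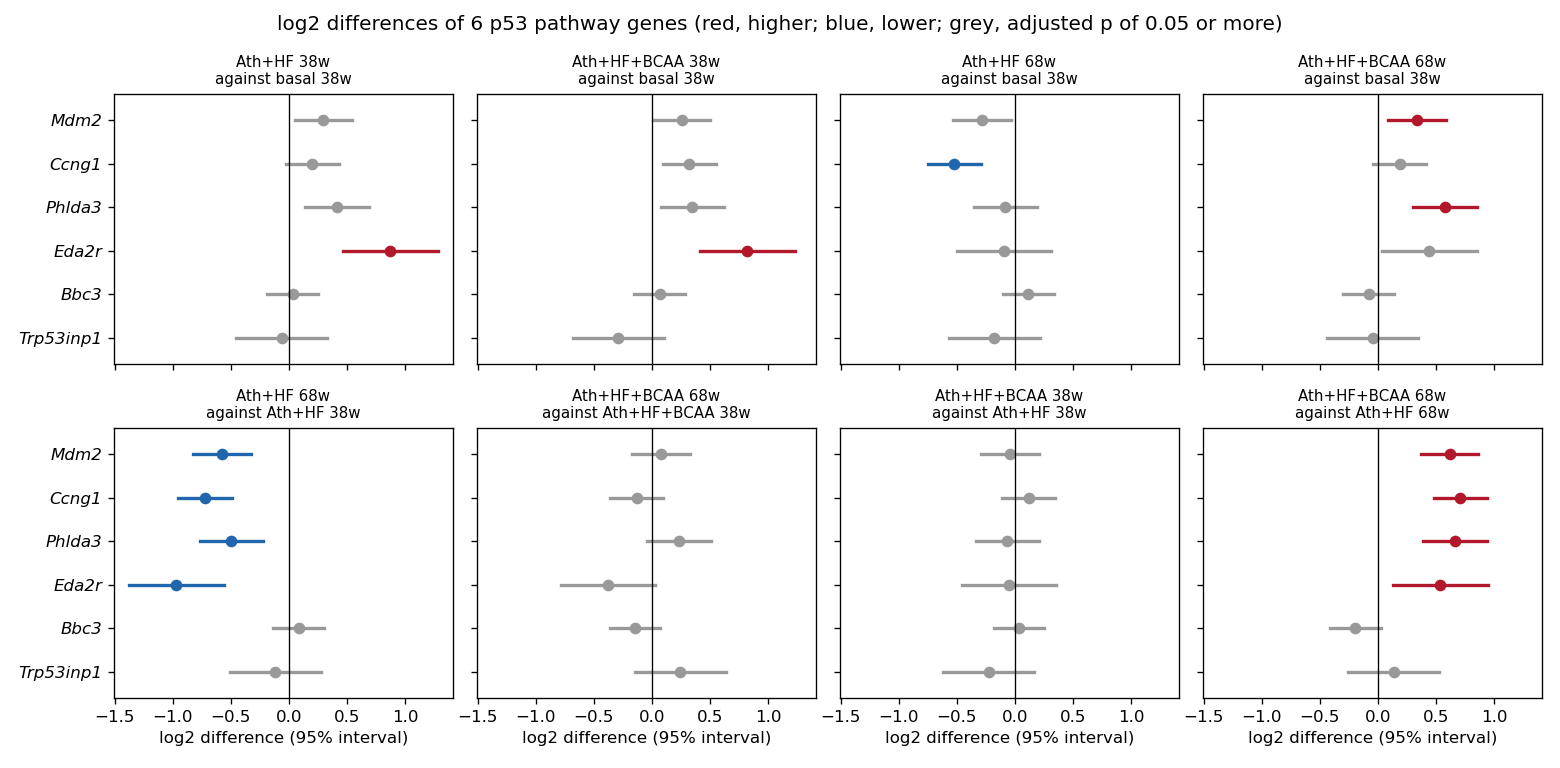
Log2 differences (horizontal axis, point) with 95% intervals (line) of the 6 genes in 8 comparisons from the limma fit, colored red where called higher, blue where called lower and grey where the adjusted p was 0.05 or more. Mdm2, Ccng1, Phlda3 and Eda2r are blue from 38w to 68w in the Ath+HF group and red in Ath+HF+BCAA against Ath+HF at 68w, and these 2 panels share the 3 arrays of Ath+HF at 68w.

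The comparisons at 68w ask whether BCAA in the diet went with other levels of these genes in late disease. In Ath+HF+BCAA against Ath+HF, 4 of 6 genes were called higher and none lower, where 19.8% of all genes were called higher and 16.4% lower. The median log2 difference of the 6 genes was 0.58, against -0.09 over all genes. Under equal array medians, 2965 of all genes were higher and 7362 lower there, in place of 3947 and 3274, and Mdm2, Ccng1 and Phlda3 were still called higher. Against the basal diet group, Ath+HF at 68w had 1 gene lower (Ccng1) and none higher, where 19.1% of all genes were lower and 19.0% higher. Ath+HF+BCAA at 68w had 2 genes higher (Mdm2 and Phlda3) and none lower, where 22.9% of all genes were higher and 21.8% lower. Under equal array medians, all genes split into 2651 higher and 4565 lower in Ath+HF, in place of 3791 and 3812, and into 2649 and 7625 in Ath+HF+BCAA, in place of 4557 and 4342. A count of 1 or 2 of 6 is near these shares.

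The difference between Ath+HF+BCAA and Ath+HF was itself compared between the ages. It was larger at 68w than at 38w by 0.66 for Mdm2 (standard error 0.16, adjusted p = 0.00958), by 0.59 for Ccng1 (standard error 0.15, adjusted p = 0.0111) and by 0.73 for Phlda3 (standard error 0.18, adjusted p = 0.00946). For Eda2r it was larger by 0.59, which did not pass (standard error 0.27, adjusted p = 0.141). So 3 of 6 genes were called higher and none lower in this test, where 12.9% of all genes were called higher and 7.67% lower, with a median of 0.59 for the 6 genes and -0.05 over all genes. Under equal array medians, 1820 of all genes were higher and 3608 lower, in place of 2572 and 1530, and under quantile normalization 2306 and 2128. The same term tests whether the change from 38w to 68w differed between the diets. All 3 calls held when any 1 array was left out.

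Over the 15 arrays, after each gene's mean was subtracted, Mdm2 and Ccng1 were the closest pair among the members, with a root mean square difference of 0.155 log2 units. Mdm2 and Phlda3 differed by 0.208 and Ccng1 and Phlda3 by 0.242, while Eda2r and Trp53inp1 were the farthest apart at 0.518. Among all genes with an SD of at least 0.5 times that of the member, those nearest in this measure were Smurf1 (0.105) and Cp (0.112) to Mdm2, and Ppt1 (0.106) and Armcx1 (0.107) to Ccng1. For Phlda3 they were Tmem229a (0.107) and Tmem237 (0.126), and for Eda2r Slc11a2 (0.190) and Chrm3 (0.231). Bbc3 was nearest to Epha10 (0.0720) and Selenop (0.0845), and Trp53inp1 to Cyp11b2 (0.169) and Tat (0.174). These are descriptions over 15 arrays of 5 groups, and the arrays share those groups.

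In some comparisons the macrophage markers were called in the same direction as Mdm2, Ccng1, Phlda3 and Eda2r. All 8 were called lower from 38w to 68w in the Ath+HF group, where 20.0% of all genes were. All 8 were called higher in Ath+HF+BCAA against Ath+HF at 68w. At 38w, 7 of 8 were called higher against the basal diet group in each diet group. The shares of all genes called higher were 3.05% in Ath+HF and 3.67% in Ath+HF+BCAA. From 38w to 68w in the Ath+HF+BCAA group 4 of 8 were called higher, where 20.5% of all genes were. None of the 6 p53 pathway genes was called there. Of 8 markers of stellate cells and myofibroblasts, 4 were lower from 38w to 68w in the Ath+HF group and 7 were higher in Ath+HF+BCAA against Ath+HF at 68w, where their mean lay between 8.81 and 8.93 against 7.84 and 7.99. In that comparison 4 of 6 endothelial, 4 of 4 measured cholangiocyte and 5 of 6 T and NK cell markers were also higher, as was 1 of 3 measured B cell markers. None of the 5 neutrophil markers was called by limma, and 1 had an unadjusted p under 0.05. Of 8 hepatocyte markers 3 were lower there. Over all genes, 19.8% were called higher and 16.4% lower in that comparison. The part of these markers in the results for Mdm2, Ccng1, Phlda3 and Eda2r was not tested. Against the basal diet group, the median log2 difference of the macrophage markers was 1.19 in Ath+HF at 38w. Eda2r was called higher there by 0.87, while Mdm2 differed by 0.30, Ccng1 by 0.20 and Phlda3 by 0.41 and none of these 3 passed. In Ath+HF at 68w 5 of 8 macrophage markers were called lower than with the basal diet (median -0.97), where 19.1% of all genes were. Ccng1 was called lower there, and Mdm2 (-0.28), Eda2r (-0.10) and Phlda3 (-0.08) did not pass.

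**Figure D3:**
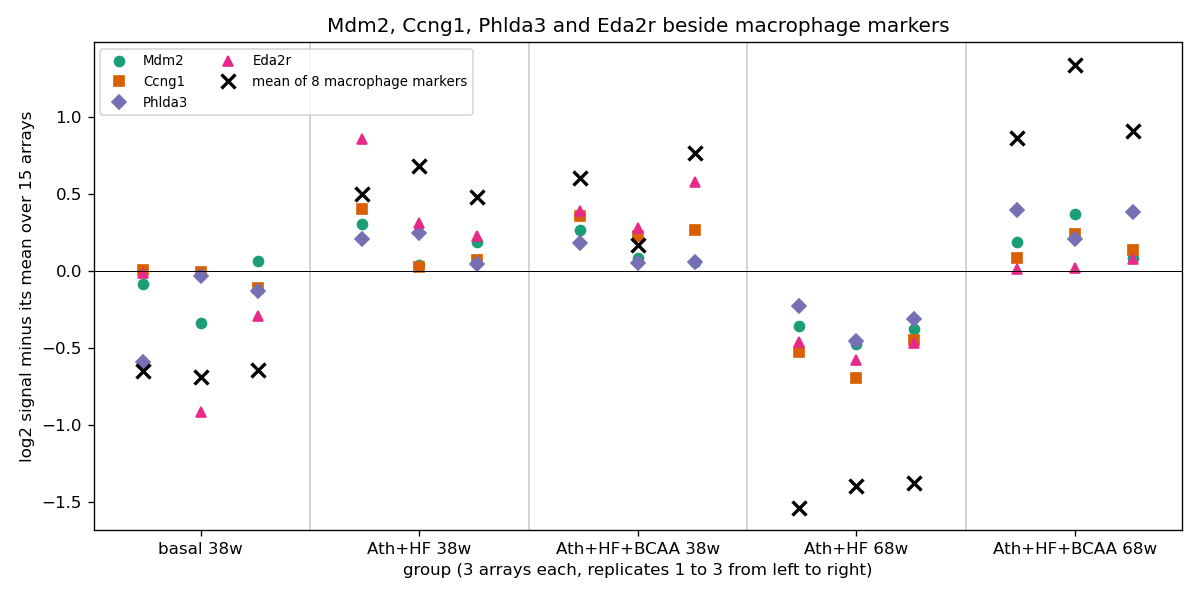
Log2 signal minus its mean over the 15 arrays (vertical axis) for Mdm2, Ccng1, Phlda3 and Eda2r and for the mean of 8 macrophage markers (black crosses), with arrays grouped along the horizontal axis by group and replicate. Under the label Ath+HF 68w all 4 genes and the marker mean lie below 0. The basal diet arrays hold low macrophage markers, with Mdm2 between -0.34 and 0.06 and Ccng1 between -0.11 and 0.01. In the same arrays Eda2r lies between -0.92 and -0.01 and Phlda3 between -0.59 and -0.03.

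Genes that act on p53 were read from a list of 15 regulators and relatives. In Ath+HF+BCAA against Ath+HF at 68w, 9 of 15 were called higher and none lower, where 19.8% and 16.4% of all genes were. The median log2 difference of the 15 was 0.31, against -0.09 over all genes. Setting the array medians equal gave 5 higher and 2 lower with a median of 0.17. The damage kinase gene Atm had group means of 8.18 and 7.03 and was higher by 1.15 (standard error 0.12, adjusted p = 3.1e-06), and its relative Atr, with means of 8.27 and 7.52, was higher by 0.75 (standard error 0.08, adjusted p = 4.41e-06). The checkpoint kinase gene Chek2 was higher by 0.82 (standard error 0.13, adjusted p = 0.000114), and Trp53bp2, whose product ASPP2 binds p53 and steers it towards death genes, was higher by 0.79 (standard error 0.10, adjusted p = 9.65e-06). In the Ath+HF group 6 of 15 were lower and 3 higher from 38w to 68w, where 20.0% and 17.6% of all genes were. Atr fell by 0.82, Atm by 1.07, Usp7, a deubiquitinase of Mdm2 and p53, by 0.65, and Rchy1, a further ubiquitin ligase of p53, by 0.63 on the log2 scale. At 38w, 0 of 15 were called by limma in Ath+HF against the basal diet group, and 0 had an unadjusted p under 0.05. Over all genes, 3.05% were called higher and 1.18% lower there.

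Other known p53 targets were read from a list of their own. Of 36 measured genes of 39 listed (Fdxr, Sco2 and Gls2 had no single-symbol cluster), 12 were called higher and 5 lower in Ath+HF+BCAA against Ath+HF at 68w, where 19.8% and 16.4% of all genes were. In the Ath+HF group 5 were higher and 10 lower from 38w to 68w, where 17.6% and 20.0% of all genes were. Their medians of 0.17 and -0.10 lay nearer to those of all genes, -0.09 and 0.05, than the medians of the 6 genes did. Against the basal diet group at 38w, 3 of 36 were higher in Ath+HF and 2 in Ath+HF+BCAA, beside 3.05% and 3.67% of all genes. In Ath+HF these were Plk2 by 0.65, Aen by 0.47 and Tnfrsf10b by 0.55. In Ath+HF at 68w 8 were higher and 6 lower than with the basal diet at 38w, beside 19.0% and 19.1% of all genes. Under equal array medians these counts were 6 and 7. In Ath+HF+BCAA at 68w 16 were higher and 7 lower (13 and 11 under equal array medians), beside 22.9% and 21.8% of all genes. Under that setting 1 was higher and 1 lower in Ath+HF at 38w.

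Among the 11 targets of cell cycle arrest, 4 were higher and 1 lower in Ath+HF+BCAA against Ath+HF at 68w. Over all genes, 19.8% were called higher and 16.4% lower there. Plk2, a kinase of the centrosome cycle, had means of 8.41 and 6.75 and was higher by 1.66 (standard error 0.16, adjusted p = 1.19e-06). Sesn1, a sestrin that restrains mTORC1, was higher by 1.02 (standard error 0.10, adjusted p = 8.17e-07), and Sfn, which encodes 14-3-3 sigma, by 1.58 (standard error 0.27, adjusted p = 0.000258). Rprm, a further arrest gene, was lower by a log2 difference of -0.39 (standard error 0.09, adjusted p = 0.00229). From 38w to 68w in the Ath+HF group, Sesn1 fell by 0.94, Plk2 by 1.40 and Zmat3, an RNA-binding p53 target, by 0.74 on the log2 scale, while Rprm rose by 0.46.

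Of 14 targets of cell death, 7 were higher and 3 lower in Ath+HF+BCAA against Ath+HF at 68w, where 19.8% and 16.4% of all genes were. Apaf1, the scaffold of the apoptosome, was higher by 1.33 (standard error 0.15, adjusted p = 5.14e-06), Steap3, a ferrireductase, by 0.93 (standard error 0.12), and Shisa5 by 0.87 (standard error 0.10). Ei24 went the other way, with means of 10.12 and 11.66 and a log2 difference of -1.54 (standard error 0.13, adjusted p = 1.9e-07). Of 11 measured targets of repair and metabolism, 1 was higher (Polk, a polymerase that copies damaged DNA, by 0.57) and 1 lower (Slc19a2, a thiamine transporter, by a log2 difference of -0.83). Setting the array medians equal gave 1 higher and 2 lower.

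The BCL2 family, which Bbc3 acts on, held 11 genes, of which 6 were higher and 1 lower in Ath+HF+BCAA against Ath+HF at 68w. Under equal array medians these were 5 and 3. Over all genes, 19.8% were called higher and 16.4% lower in the main setting. The anti-apoptotic genes Bcl2 and Mcl1 were higher by 1.53 (standard error 0.14, adjusted p = 5.46e-07) and 0.82 (standard error 0.13, adjusted p = 0.000119), and the pro-apoptotic genes Bcl2l11 and Bak1 by 0.67 and 0.59, so calls fell on both sides of the family. Bcl2 is also expressed in lymphocytes, and the part of the T and NK cell markers above in its difference was not tested. Of 6 other inhibitors of cyclin-dependent kinases, 2 were higher there, Cdkn2c by 1.06 and Cdkn1b by 0.56, while equal array medians gave 2 higher and 4 lower. Of 5 ligands and receptors of Eda2r and Gdf15, 0 were called there by limma, 3 had an unadjusted p under 0.05, and 3 were lower with the array medians set equal.

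Proliferation genes are known to be repressed by p53 through p21. Of 17 measured, 13 were higher and none lower in Ath+HF+BCAA against Ath+HF at 68w, where 19.8% and 16.4% of all genes were. The median log2 difference of the 17 was 0.89. Mki67, the Ki-67 antigen, was higher by 1.79 (standard error 0.21, adjusted p = 6.92e-06), the mitotic cyclin Ccnb2 by 1.76, and the spindle checkpoint gene Bub1 and the ribonucleotide reductase gene Rrm2 by 1.08 each. From 38w to 68w in the Ath+HF group 8 were lower and none higher, where 20.0% and 17.6% of all genes were. Their median was -0.51, and Bub1 fell by 0.77 and Rrm2 by 0.72. At 38w, 3 were higher in Ath+HF than with the basal diet (Bub1, Aurkb and Ccna2), where 3.05% of all genes were.

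Genes of the integrated stress response, which is known to raise Gdf15 without p53, numbered 11 on the list. Of these 1 was higher and 2 lower in Ath+HF+BCAA against Ath+HF at 68w (1 and 4 under quantile normalization), where 19.8% and 16.4% of all genes were. Atf5 had means of 8.35 and 10.88 and was lower by a log2 difference of -2.53 (standard error 0.15, adjusted p = 8.7e-09), the hormone gene Fgf21 was lower by a log2 difference of -2.16 (standard error 0.37, adjusted p = 0.000242), and Atf3 was higher by 1.05 (standard error 0.25, adjusted p = 0.00449). From 38w to 68w in the Ath+HF group Atf5 rose by 1.36 and Fgf21 by 1.35, and Chac1, a glutathione-degrading enzyme, fell by 0.46 on the log2 scale.

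**Figure D4:**
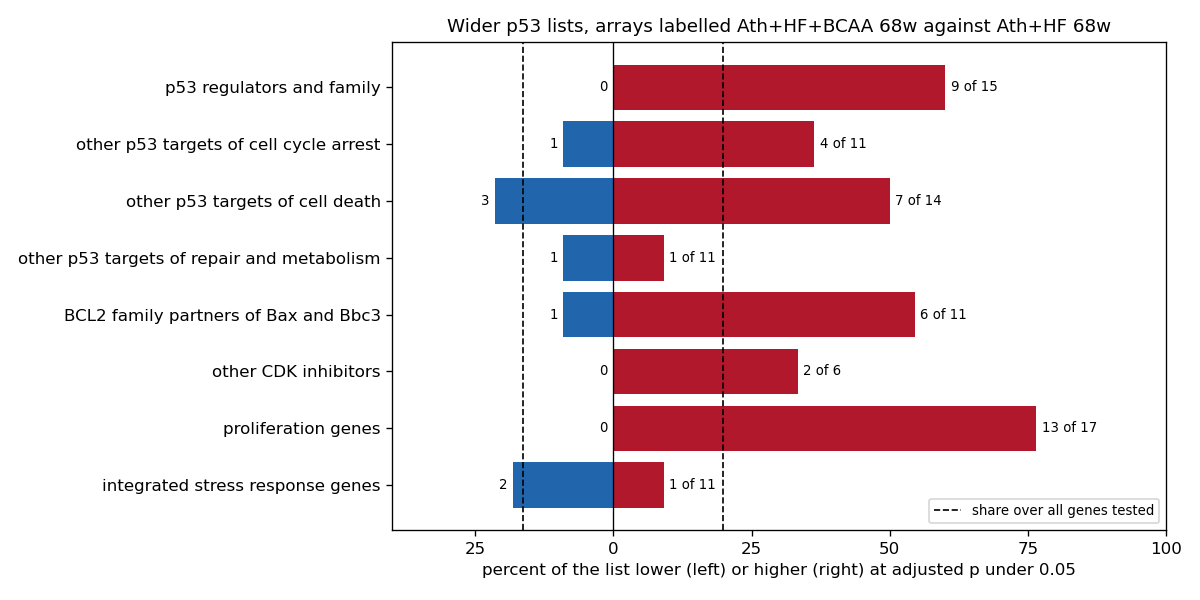
Percent of the measured genes of each list (vertical axis) called lower (left, blue) or higher (right, red) in Ath+HF+BCAA against Ath+HF at 68w, with counts beside the bars and dashed lines at the shares over all genes, 16.4% lower and 19.8% higher. Proliferation genes (13 of 17) and p53 regulators (9 of 15) extend farthest to the right, and targets of repair and metabolism and stress response genes do not reach the line on the right.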

How the data were processed

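Liver RNA was measured on GeneChip Mouse Gene 1.0 ST arrays. The authors made the deposited log2 values by RMA in Affymetrix Expression Console (version not given in the sources used here), and these values were used as they stand in the main setting. An array's group came only from its label. In the platform annotation, 21789 of 35556 clusters carry 1 symbol, 1621 carry several and 12146 are not named here. An Entrez ID in RefSeq (GRCm38.p6) was found for 21698, and no symbol changed. The brightest cluster, by its mean, stood for each of 999 genes that have more than 1.

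A model with a mean for each group was fitted in limma (version 3.58.1, R version 4.3.3, lmFit and eBayes, 10 residual degrees of freedom). It gave the 9 comparisons and, where no alternative is named, the adjusted p-values of the report. In the analysis of variance, Bonferroni's method covered the pairs of groups and not the genes. The number of arrays limits the precision. The members and gene lists were chosen with earlier results of these data known, so counts over them are descriptions. From a list, up to 4 called genes with the smallest adjusted p were named. Promoter windows and motif matches came from RefSeq sequence. Alternatives were adjustment over all transcript clusters, averaging the clusters of a gene, omitting dim genes, array medians set equal, quantile normalization, a fit of the groups compared alone, a robust fit with a variance trend, array weights, a replicate block, the methods' analysis of variance, and leaving out each array. The scripts were tested on simulated data.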

Additional observations from a re-analysis of the deposited data

Results flagged for a closer look

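The difference between Ath+HF+BCAA and Ath+HF was larger at 68w than at 38w, by limma's test of the difference itself, for Mdm2 by 0.66 (standard error 0.16, adjusted p = 0.00958), for Ccng1 by 0.59 (standard error 0.15, adjusted p = 0.0111) and for Phlda3 by 0.73 (standard error 0.18, adjusted p = 0.00946), all on the log2 scale. At 68w all 3 arrays labelled Ath+HF+BCAA lay above all 3 labelled Ath+HF in each of these genes. The macrophage marker mean differed between the same arrays, at 10.39 to 10.87 against 8.00 to 8.16, and its part in these results was not tested.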

How the results depend on the processing

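Of 405 refits of the 16 calls of single genes under the alternatives, 0 were reversed, 33 lost the call and 372 kept it in the same direction. The calls of Mdm2 and Ccng1 from 38w to 68w in Ath+HF held in every one, and those of Mdm2, Ccng1 and Phlda3 in Ath+HF+BCAA against Ath+HF at 68w, and in its difference between the ages, held in every limma alternative. Between the 68w groups 4 of the 6 genes were called, which became 5 with array weights (Bbc3 lower) and 3, without Eda2r, with p-values adjusted over all transcript clusters, with dim genes left out and by the methods' analysis of variance (Bonferroni's method) before and after Benjamini-Hochberg. In Ath+HF 3 were called from 38w to 68w with dim genes left out, and between the ages 4 with array weights. The number of called genes changed by more than 1.5 times as follows. For Ath+HF against basal diet at 38w it was 0, in place of 1, with p-values adjusted over all transcript clusters, with the groups compared alone, by the analysis of variance after Benjamini-Hochberg, and with the 38w arrays alone (chosen after seeing the data). For Ath+HF+BCAA against basal diet at 38w it was 0, in place of 1, under the same 4 settings and with dim genes left out, where Eda2r and Bbc3 have no value. For Ath+HF at 68w against basal diet it was 2, in place of 1, with dim genes left out, equal array medians, a robust variance trend, and array weights, where Mdm2 was also called lower. For Ath+HF+BCAA at 68w against basal diet it was 4, in place of 2, under quantile normalization (3 higher and Bbc3 lower), 1 with the groups compared alone and by the analysis of variance, and 0 with the latter after Benjamini-Hochberg, which also gave 2, in place of 4, from 38w to 68w in Ath+HF. For Ath+HF+BCAA from 38w to 68w it was 3, in place of 0, with array medians set equal, 1 (Bbc3) under quantile normalization and 1 (Eda2r) with the groups compared alone.

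Leaving out each array gave 0 to 1 called in both diet groups at 38w against basal diet, 1 to 2 in Ath+HF and 1 to 3 in Ath+HF+BCAA at 68w against basal diet, and 0 to 1 from 38w to 68w in Ath+HF+BCAA. It gave 4 throughout from 38w to 68w in Ath+HF, and 3 to 4 between the 68w groups and between the ages. Without basal diet replicate 2 Phlda3 was called in place of Eda2r in Ath+HF at 38w against basal diet, Eda2r was called lower from 38w to 68w in Ath+HF+BCAA and Mdm2 in Ath+HF at 68w against basal diet, and without replicate 3 of Ath+HF at 68w Trp53inp1 was called in the latter and between the 68w groups. With array medians set equal, the median over all genes went from -0.09 to -0.23 between the 68w groups, from 0.01 to -0.20 in Ath+HF+BCAA at 68w against basal diet, from 0.03 to -0.12 from 38w to 68w in Ath+HF+BCAA and from -0.05 to -0.21 between the ages.

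Replicate numbers did not pair the arrays: deviations of same-numbered arrays correlated between -0.156 and 0.183 and only 3 of 30 such pairs exceeded 0.1. A replicate block gave 3 called genes in place of 2 in Ath+HF+BCAA at 68w against basal diet, 4 as before between the 68w groups, and changed no other such count.

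Over all genes, these counts moved by more than 1.5 times. For Ath+HF against basal diet at 38w (843) they were 502 with the groups alone, 483 with the 38w arrays alone, 421 without Ath+HF replicate 2 and 545 without basal diet replicate 3. For Ath+HF+BCAA at 38w (1095) they were 322 with the groups alone, 590 with the 38w arrays alone, 667 with array weights, and 555, 672 and 723 without Ath+HF+BCAA replicate 1, its replicate 3 and basal diet replicate 3. For Ath+HF at 68w against basal diet (7603 of 19938 genes) 12192 of 35556 transcript clusters were called, so the totals differ. The analysis of variance gave 4998 there, 4892 from 38w to 68w in Ath+HF (7503) and 201 between the 38w diet groups (0), where array weights gave 1, as did omitting Ath+HF+BCAA replicate 3. After Benjamini-Hochberg it gave 20 and 30 in the diet groups at 38w, 2782 and 4955 at 68w against basal diet (7603 and 8899), 2797 and 3612 from 38w to 68w (7503 and 7735) and 3540 between the 68w groups (7221).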
